A study of Mus musculus with 11 samples.

Results

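The classical MHC class II pathway was followed through 7 genes in mouse liver: H2-Aa, H2-Ab1, H2-Eb1, Cd74, H2-DMa, H2-DMb1 and Ciita. They were chosen by symbol, and all 7 of the 7 listed symbols had a row in a table of 13636 genes. RNA was taken from the livers of C57BL/6J males, an inbred laboratory strain, and all 11 libraries come from mice put on a Western diet at the age of 8 weeks, with injections for 6 weeks after a first month of feeding. The injections were a mimic of the microRNA miR-30c (4 libraries), a scramble oligomer (3 libraries) or PBS (4 libraries). Both oligomers were given at a dose that increased, with a first step of 2.5 mg/kg, a middle step of 5.0 mg/kg and a last step of 7.5 mg/kg. Libraries are numbered within a group, and nothing says that each is from its own animal, so the spread behind the p-values may be technical.

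MHC class II molecules are pairs of an alpha and a beta chain that display peptides from endosomes to CD4+ T cells. The invariant chain fills the groove and guides new class II molecules to endosomes, where cathepsins cut it down and the DM heterodimer swaps its last fragment for other peptides. The coactivator CIITA switches the whole set on at a shared promoter module. In liver, class II is known from dendritic cells, B cells, Kupffer cells, infiltrating macrophages and, at a lower level, sinusoidal endothelium. C57BL/6 mice lack a working H2-Ea gene, so that the I-E chain made from H2-Eb1 has no partner to reach the cell surface with, while I-A, made of the H2-Aa and H2-Ab1 chains, is displayed.

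In GRCm38 (the assembly called mm10), with GENCODE M21 annotation, all 7 genes are protein-coding and 5 of them share the MHC class II region of chromosome 17. H2-DMa lies at 34119541 to 34139101 and H2-DMb1 at 34153072 to 34160230, both on the plus strand. H2-Ab1 follows at 34257689 to 34269419 on the plus strand, H2-Aa at 34282744 to 34287823 on the minus strand and H2-Eb1 at 34305867 to 34316674 on the plus strand. Ciita lies on chromosome 16 at 10480059 to 10528418 and Cd74 on chromosome 18 at 60803848 to 60812652, both on the plus strand.

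Promoters of class II genes carry an X box, bound by the RFX complex, and a Y box, bound by NF-Y, which together hold CIITA. RefSeq promoter windows (GRCm38.p6, 250 bases before to 50 after a start) matched 4 of the 7 genes. Stretches of 60 bases around the Y box are shown for the 3 genes with the box within 62 bases of the RefSeq start, in the direction of transcription, with the Y box core GATTGG and, where its letters occur, the X box core AGCAAC in capitals.

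H2-Aa: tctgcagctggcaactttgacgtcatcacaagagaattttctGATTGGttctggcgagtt
H2-Eb1: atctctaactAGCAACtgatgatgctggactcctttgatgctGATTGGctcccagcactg
H2-DMb1: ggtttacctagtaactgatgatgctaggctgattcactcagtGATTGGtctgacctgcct

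The stretches are chr17:34287855-34287914 on the minus strand for H2-Aa, chr17:34305765-34305824 on the plus strand for H2-Eb1 and chr17:34153087-34153146 on the plus strand for H2-DMb1. The Y box core began 49 bases before the RefSeq start of H2-Aa, 60 before that of H2-Eb1 and 62 before that of H2-DMb1. For H2-DMb1 the RefSeq start, 34153191, lies inside the gene as GENCODE gives it, and so does the stretch shown, while for H2-Aa and H2-Eb1 both annotations have the same start. In a window of H2-DMa it began 199 bases before the RefSeq start. On either strand, 16.1% of 32851 promoter windows held GATTGG, 14.8% held AGCAAC and 2.64% held both, as H2-Eb1 did. These are matches of letters and not measured binding.

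The mature mouse miR-30c-5p, which the mimic is named for, is shown because its seed (bases 2 to 8, in capitals) largely sets which transcripts it pairs with; the sequence of the injected oligomer is not given in the sources used here.

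mmu-miR-30c-5p: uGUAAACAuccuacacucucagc

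The 7-base match to this seed, TGTTTAC, occurred at 1 place in the 3′ UTR of H2-Eb1 and nowhere in the longest annotated 3′ UTR of the other 6 genes. Of 11462 genes in the table with an annotated 3′ UTR, 16.5% held such a match.

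Values are scaled CPM, the reads of a gene relative to an effective library size, as deposited. Libraries held 39705157 to 60399018 counted reads in the mimic group, 74519792 to 88869950 in the scramble group and 62848115 to 101380174 in the PBS group. At that depth H2-Eb1 rested on 1371 to 8019 reads per library, H2-Ab1 on 510 to 2798, H2-DMa on 84 to 282 and Ciita on 36 to 182, so that Ciita has the widest counting error. Major urinary protein rows took 11.6 to 52.9% of the reads of a library. PBS replicate 2 stood apart from the other 3 PBS libraries for all 7 genes, so results are given with it and without it.

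**Figure D1:**
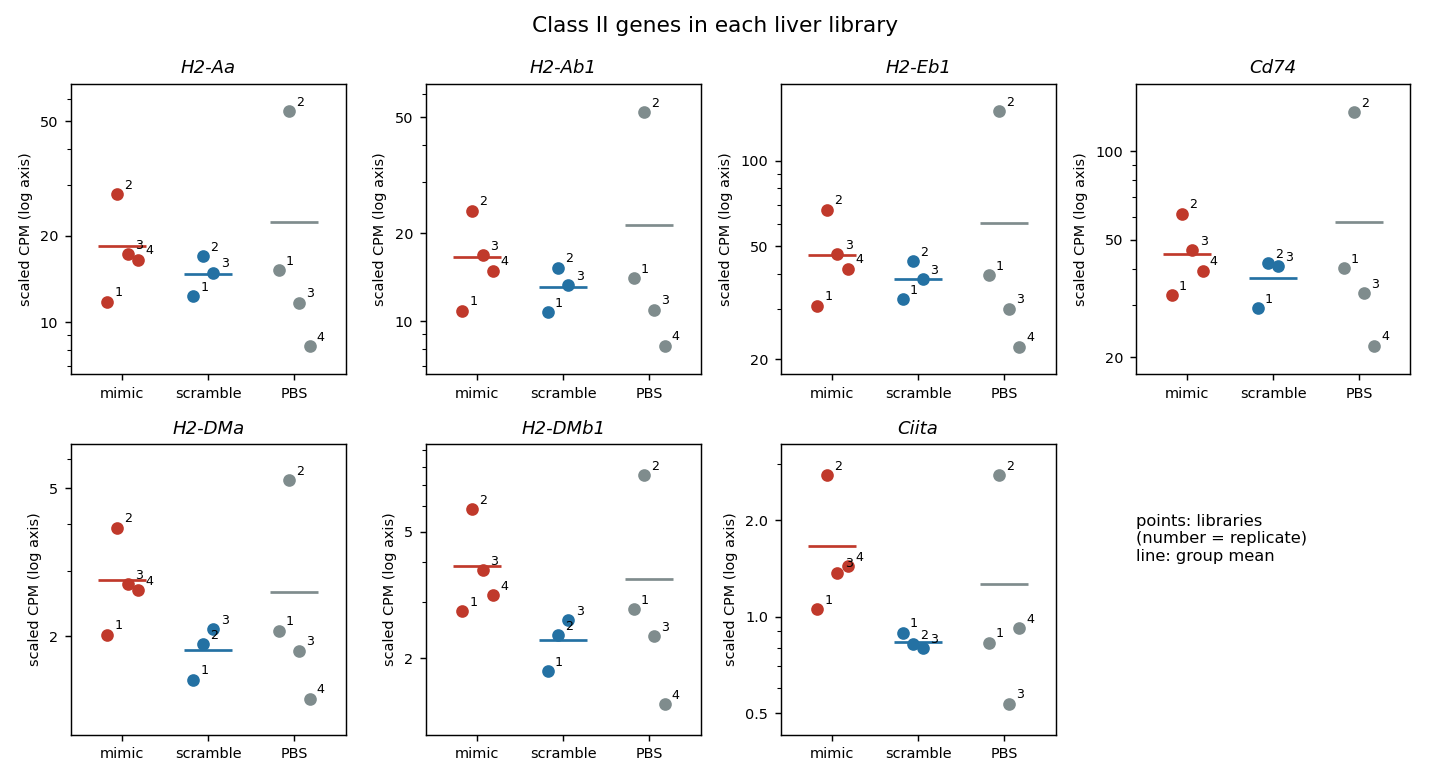
Level of each of the 7 class II genes in scaled CPM (log axis) in the 4 mimic, 3 scramble and 4 PBS libraries; points are libraries with their replicate number and lines are group means. PBS replicate 2 is the highest point in every panel, and mimic replicate 2 is the highest of the mimic libraries.

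The genes for the chains of I-A were present in every library at a similar, low level. H2-Ab1, the I-A beta chain, had 10.8, 23.9, 16.8 and 14.9 scaled CPM in mimic replicates 1 to 4, 10.7, 15.2 and 13.3 in scramble replicates 1 to 3, and 14.0, 52.1, 10.95 and 8.23 in PBS replicates 1 to 4. Mimic replicate 2 and PBS replicate 2 stood above the rest, and the mimic range overlapped both others. H2-Aa, the I-A alpha chain, had 11.8, 27.8, 17.2 and 16.5 scaled CPM in the mimic libraries, 12.3, 17.0 and 14.8 in the scramble libraries, and 15.2, 54.1, 11.7 and 8.23 in the PBS libraries. Its order over the libraries was close to that of its partner, and H2-Aa per H2-Ab1 was 1.10 ± 0.0578 in mimic (SD, n = 4), 1.13 ± 0.0185 in scramble (SD, n = 3) and 1.05 ± 0.0353 in PBS libraries (SD, n = 4). H2-Eb1, the I-E beta chain, had 30.8, 67.2, 46.8 and 41.7 scaled CPM in the mimic libraries, 32.5, 44.2 and 38.3 in the scramble libraries, and 39.5, 149, 30.1 and 22.1 in the PBS libraries. The same libraries were high and low, and the groups overlapped.

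Cd74, the invariant chain, had 32.4, 61.3, 46.2 and 39.3 scaled CPM in the mimic libraries, 29.3, 41.7 and 40.7 in the scramble libraries, and 40.1, 135, 33.1 and 21.9 in the PBS libraries. As with the chains, PBS replicate 4 was the lowest library and PBS replicate 2 the highest, and all 3 groups overlapped.

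The subunits of the peptide editor DM were lower still. H2-DMa had 2.02, 3.92, 2.75 and 2.66 scaled CPM in the mimic libraries, 1.53, 1.90 and 2.09 in the scramble libraries, and 2.07, 5.25, 1.83 and 1.36 in the PBS libraries. Mimic replicate 1 lay just under scramble replicate 3, while the other 3 mimic libraries were above every scramble library. H2-DMb1 had 2.82, 5.87, 3.78 and 3.16 scaled CPM in the mimic libraries, 1.82, 2.36 and 2.64 in the scramble libraries, and 2.85, 7.52, 2.34 and 1.44 in the PBS libraries. All 4 mimic libraries were above all 3 scramble libraries, and the mimic and PBS ranges overlapped. The row of H2-DMb1 was identical to that of its near-copy H2-DMb2 in all 11 libraries, so the value cannot be assigned to either gene alone and the 2 rows are 1 measurement.

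Ciita, the coactivator, had 1.06, 2.75, 1.37 and 1.44 scaled CPM in the mimic libraries, 0.890, 0.818 and 0.796 in the scramble libraries, and 0.829, 2.76, 0.534 and 0.920 in the PBS libraries. All mimic libraries were above all scramble libraries, and they were above 3 of the 4 PBS libraries. Only the mimic libraries and PBS replicate 2 exceeded 1 scaled CPM. The deposited table is named for a filter of 1 CPM in 3 libraries, so Ciita may be in it only through these. Mimic replicate 2 and PBS replicate 2 had almost the same Ciita level, although H2-Ab1 was at 23.9 and 52.1 scaled CPM there.

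Per kilobase of the longest coding transcript, Cd74 averaged 31.8 ± 8.75 in mimic (SD, n = 4), 26.4 ± 4.89 in scramble (SD, n = 3) and 40.9 ± 37.2 in PBS libraries (SD, n = 4). H2-Eb1 averaged 27.9 ± 9.14 in mimic, 23.0 ± 3.49 in scramble and 36.1 ± 35.8 in PBS libraries on the same scale, and its range did not separate from that of Cd74. H2-Aa followed at 16.2 ± 6.01 in mimic, 13.03 ± 2.08 in scramble and 19.8 ± 18.97 in PBS libraries. H2-Ab1, with 13.7 ± 4.49, 10.8 ± 1.87 and 17.6 ± 17.0 in mimic, scramble and PBS libraries, did not separate from H2-Aa. The order of these chains depended on the length used. Per kilobase of all annotated exons H2-Aa averaged 4.82, 3.87 and 5.87 in mimic, scramble and PBS libraries. H2-Ab1 averaged 6.46, 5.09 and 8.30 on that scale. H2-DMb1 averaged 2.78 ± 0.976 in mimic, 1.62 ± 0.294 in scramble and 2.52 ± 1.94 in PBS libraries. H2-DMa averaged 1.41 ± 0.396, 0.918 ± 0.143 and 1.31 ± 0.885 in mimic, scramble and PBS libraries. It was under the H2-DMb1 row in 11 of 11 libraries, with ranges that overlapped in the PBS group. That row cannot be assigned to H2-DMb1 or H2-DMb2 alone, so the order of the 2 DM subunits is not settled by it. Ciita was lowest, at 0.275 ± 0.125 in mimic, 0.139 ± 0.00818 in scramble and 0.210 ± 0.168 in PBS libraries.

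Setting mimic against scramble libraries addresses the miR-30c sequence, since both groups were injected with an oligomer. All 7 genes had a positive log2 change, between 0.23 and 0.55 with a median of 0.28 on the log2(value + 1) scale, which understates changes of low genes. None passed the test: 0 of 7 reached an adjusted p of 0.05 with limma (Benjamini-Hochberg over all genes), 0 of 7 an unadjusted p of 0.05, and edgeR and DESeq2 on recovered reads also called 0. Over all genes, 32.0% passed in either direction and 17.3% were called higher, with a median change of 0.00327. The estimates for the chains and Cd74 were 0.25 ± 0.48 (SE) for H2-Aa, 0.28 ± 0.48 for H2-Ab1, 0.23 ± 0.50 for H2-Eb1 and 0.24 ± 0.47 for Cd74, with limma adjusted p between 0.675 and 0.749. Their 95% intervals together ran from -0.87 to 1.33, and the interval of H2-Eb1 reached from 0.549-fold to 2.52-fold. The changes of H2-DMa, H2-DMb1 and Ciita were 0.42 ± 0.28, 0.55 ± 0.34 and 0.49 ± 0.27, with limma adjusted p of 0.264, 0.233 and 0.181. For 2 of 7 genes, H2-DMb1 and Ciita, the mimic and scramble libraries did not overlap, against 40.8% of all genes.

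PBS replicate 2 enters this comparison only through the shared estimate of the spread. Without it the changes kept their values, the SE of Ciita was 0.17, and Ciita passed with a limma adjusted p of 0.0472, while H2-DMa and H2-DMb1 had 0.0572 and 0.0582. That made 1 of 7 called, against 36.0% of all genes called in either direction and 19.1% called higher. PBS replicate 2 was set apart for its high values of these same genes, so the narrower spread without it is no separate support. Ciita may be in the table only through the mimic libraries and PBS replicate 2, so its call is no separate support.

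Against PBS, the same mimic libraries gave log2 changes between -0.04 and 0.28 with all libraries, 5 positive and 2 negative. None of the 7 passed, with limma adjusted p from 0.394 for Ciita to 0.995 for H2-Eb1, and 0 had an unadjusted p under 0.05, while 37.1% of all genes passed and 20.0% were called higher. The groups overlapped for all 7, while they did not for 31.7% of all genes. Without PBS replicate 2 all 7 changes were positive, between 0.47 and 0.60, and 3 of 7 rose, against 22.0% of all genes called higher and 41.7% called in either direction. Those were Ciita at 0.56 ± 0.17 (SE, limma adjusted p = 0.0256), H2-DMa at 0.47 ± 0.15 (0.0333) and H2-DMb1 at 0.60 ± 0.21 (0.0387). PBS replicate 2 was set apart for its high values of these same genes, so leaving it out raises each change and narrows the spread. The signs and calls without it are therefore no separate support. Without mimic replicate 2 as well, 1 of 7 passed, against 5487 of all 13636 genes. That was Ciita, with a limma adjusted p of 0.0186, while H2-DMa and H2-DMb1 had 0.0602 and 0.0695. With mimic replicate 2 kept, H2-Aa, H2-Ab1, H2-Eb1 and Cd74 had changes of 0.58, 0.52, 0.58 and 0.49, with limma adjusted p of 0.0866, 0.0946, 0.0791 and 0.115. Only Ciita had mimic libraries all above the other 3 PBS libraries. Over all genes, the groups did not overlap, in either direction, for 46.1%. Ciita may be in the table only through its high libraries, so this separation is no separate support. This comparison and the last share their mimic libraries, and they are not independent.

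Scramble against PBS addresses the injection of an oligomer of another sequence. The 7 changes ran from -0.31 to -0.21 with all libraries and from 0.05 to 0.34 without PBS replicate 2, so that their sign differed with that library. No class II gene passed (limma adjusted p 0.9997 for each with all libraries), and none had an unadjusted p under 0.05. Over all genes limma also called 0, 0% of the table, with 434 genes at an unadjusted p under 0.05; edgeR called 0 and DESeq2 14.

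**Figure D2:**
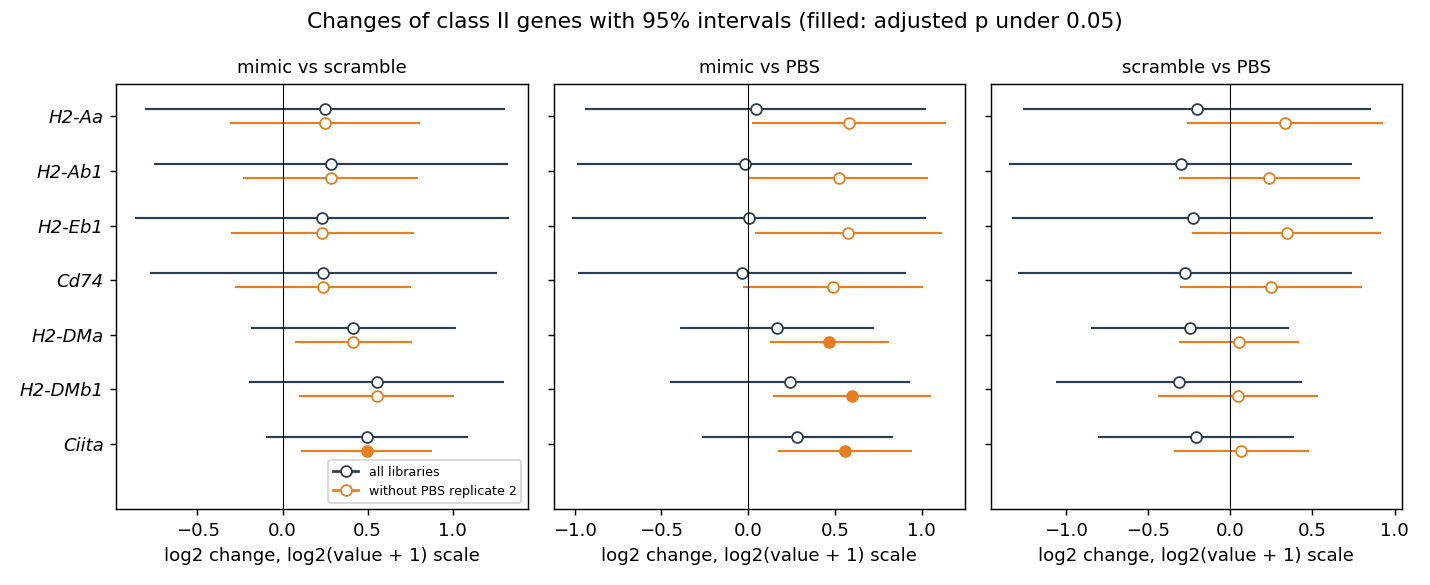
Log2 changes of the 7 genes on the log2(value + 1) scale with 95% intervals in 3 comparisons, with all libraries and without PBS replicate 2; filled points have a limma adjusted p under 0.05. Without that library, which was set apart for its high values of these same genes, the intervals narrow. Then 1 gene passes in mimic against scramble and 3 pass in mimic against PBS.

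The library that widened the spread was high for the whole pathway. In PBS replicate 2 the level was 4.63 times the mean of the other 3 PBS libraries for H2-Aa, 4.71 times for H2-Ab1, 4.89 times for H2-Eb1 and 4.27 times for Cd74. For H2-DMa, H2-DMb1 and Ciita the ratio was 3.002, 3.40 and 3.62. Ranked by the log2 distance to the highest other PBS library, H2-Eb1 was number 12 of 13636 genes, H2-Ab1 number 15, H2-Aa number 17 and Cd74 number 20, and the other 3 members were numbers 64 to 85.

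Other genes known to respond to interferon gamma were high in the same library; these were picked after their values were seen. Cxcl9, a chemokine for activated T cells, had 22.2 scaled CPM in PBS replicate 2 against 3.26 to 3.97 in the other PBS libraries. Ccl5, a chemokine of T cells and macrophages, had 5.72 against 0.291 to 0.504, and the GTPase gene Tgtp1 had 42.9 against 3.81 to 3.95. Ptprc, the pan-leukocyte gene for CD45, was 7.41 against 3.40 to 4.51. Whether this sample held more leukocytes or more RNA of these genes per cell cannot be told apart in bulk tissue, which holds for every result here.

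In the mimic group Tgtp1 was not highest in the library in which class II was. Tgtp1 had 45.8, 10.7, 12.3 and 29.9 scaled CPM in mimic replicates 1 to 4, highest in replicates 1 and 4. Cxcl9 (29.96, 18.9, 14.3 and 26.25) and Ccl5 (2.21, 1.88, 1.56 and 2.23) were also highest in replicates 1 and 4. The interferon-induced factor gene Irf1 (8.88, 9.91, 9.17 and 9.21) was highest in replicate 2, and all 4 genes were picked after their values were seen. All 7 class II genes were highest in mimic replicate 2 and lowest in replicate 1. Of 15 measured monocyte and macrophage markers, 13 were highest in mimic replicate 2 and 12 of these were lowest in replicate 1. The monocyte receptor gene Ccr2 (3.44, 11.2, 6.47 and 5.11) and the macrophage growth factor receptor gene Csf1r (12.2, 34.3, 21.8 and 17.3) were among the 12, and were picked after their values were seen. The other 2, Itgam (7.82, 6.86, 5.15 and 5.48) and Cd14, for a lipopolysaccharide co-receptor (7.84, 2.62, 2.22 and 5.995), were highest in replicate 1. The order was not particular to this list: of 12 sinusoidal endothelial markers, 11 were highest in mimic replicate 2 and 9 were lowest in replicate 1. Of 12 hepatocyte markers, 4 were highest in mimic replicate 2, and the share over all genes was not counted. Mup rows took 12.5% and 11.6% of reads in mimic replicates 1 and 4, against 34.8% and 41.3% in replicates 2 and 3; the part of this in the values was not tested.

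Over the 11 libraries the members moved together, which is given as a description since the libraries share depth and groups. Pearson's r between log2 values of 2 members ran from 0.786 for Cd74 with Ciita to 0.998 over 21 pairs, and it was at least 0.996 between the 3 chains. Without PBS replicate 2 the lowest was 0.641, and without mimic replicate 2 as well it was 0.265, again for Cd74 with Ciita, while the chains stayed at 0.985 or more. With the other 6 members Ciita had r from 0.786 to 0.907 over the 11 libraries. Ciita per H2-Ab1 was 0.0814 to 0.115 in mimic, 0.0537 to 0.0831 in scramble and 0.0488 to 0.112 in PBS libraries, ranges that overlapped.

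The genes most like the 3 chains over 11 libraries, by Pearson's r of log2 values with the chains' mean, were Notch4 (r = 0.999), Mir5107 (0.971), Fgl2 (0.958), H2-DMb2 (0.936), Nle1 (0.925) and Wdfy4 (0.915). With values centred on group means Zfp598 (0.972) took the place of Wdfy4. Without PBS replicate 2 Notch4 was the 1 gene of these that stayed among the 6 most alike. The Notch4 row was 1.10 to 1.35 times H2-Eb1 in every library, and the difference, Notch4 minus H2-Eb1, was 6.61 to 14.2 scaled CPM while H2-Eb1 itself ranged over 22.1 to 149. Notch4, a Notch receptor gene known from endothelium, is annotated at 34564268 to 34588503 on chromosome 17, apart from H2-Eb1, and Mir5107 lies inside Cd74 at 60812076 to 60812163 on chromosome 18. Whether those rows hold reads of H2-Eb1 and Cd74 was not tested, and neither is used as a separate gene.

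The other steps of the pathway were read from lists written with earlier results of these data known, and are given by counts in the same limma fit, for mimic against scramble first. Of 11 genes for invariant chain processing, 7 rose and 0 fell, with a median log2 change of 0.72 against 0.00327 for all genes and 17.3% of all genes called higher. Ctsb, encoding cathepsin B, had 348, 357, 311 and 373 scaled CPM in mimic and 186, 201 and 184 in scramble libraries, a change of 0.86 ± 0.09 (SE; limma adjusted p = 9.61e-05). Lgmn, the asparaginyl endopeptidase that starts the cutting of the invariant chain, had 43.5, 56.8, 49.1 and 47.6 in mimic and 13.7, 16.7 and 22.8 in scramble libraries, a change of 1.45 ± 0.18. Ifi30, the lysosomal thiol reductase that opens disulfide bonds of antigens, changed by 1.57 ± 0.20, with 15.4 to 19.2 scaled CPM in mimic and 4.24 to 5.63 in scramble libraries.

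Ctsd, for cathepsin D, changed by 0.72. Ctss, for cathepsin S, the main protease of the last invariant chain step in dendritic cells and macrophages, is named after its values were seen. It had 42.4, 79.6, 65.9 and 49.8 scaled CPM in mimic libraries, 12.04, 15.7 and 17.9 in scramble libraries and 17.8, 31.3, 15.4 and 10.5 in PBS libraries. The mimic libraries were above all others, and the change against scramble was 1.87 ± 0.30 (SE; limma adjusted p = 0.00110). Against PBS, 7 of the 11 also rose and 0 fell, both with and without PBS replicate 2, against 20.0% and 22.0% of all genes called higher.

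Of 9 measured genes upstream of Ciita, 4 rose and 0 fell, with a median change of 0.39, against 17.3% of all genes called higher. Spi1, encoding the myeloid factor PU.1, had 4.32, 5.66, 3.73 and 4.56 scaled CPM in mimic and 1.65, 1.48 and 2.12 in scramble libraries, a change of 1.01 ± 0.17 (SE; limma adjusted p = 0.00115). Irf8, a factor of monocytes and dendritic cells, changed by 0.93, and the interferon gamma receptor genes Ifngr1 and Ifngr2 by 0.64 and 0.39. Irf1, an interferon-induced transcription factor, had a change of 0.30 ± 0.20 (SE) that did not pass (limma adjusted p = 0.257), and is named after its values were seen. Against PBS, 4 of 9 rose, and 6 of 9 without PBS replicate 2, against 20.0% and 22.0% of all genes called higher.

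Of 11 promoter factors, 1 rose and 1 fell, against 17.3% of all genes called higher and 14.7% called lower, with a median change of -0.16. Rfxank, a subunit of the RFX complex, had 8.27, 6.95, 7.01 and 7.76 scaled CPM in mimic and 6.16, 6.44 and 6.18 in scramble libraries, a change of 0.22 ± 0.08 (SE; limma adjusted p = 0.0466). Kat2b, a histone acetyltransferase that works with CIITA, fell by 0.57 on the log2 scale. With library totals its change was 0.01, against a median of 0.49 for all genes. The other RFX subunits, Rfx5 and Rfxap, had changes of 0.12 and -0.26, and Creb1, for the X box partner CREB, had -0.24; these did not pass, and with library totals the last 2 were 0.19 and 0.28. Without mimic replicates 1 and 4, 0 rose and 1 fell. Against PBS, 1 rose and 3 fell, and 5 fell without PBS replicate 2.

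Of 14 measured genes for class II traffic and turnover, 3 rose and 1 fell, with a median of 0.11, against 17.3% of all genes called higher and 14.7% called lower. The tetraspanin genes Cd63 and Cd9 changed by 1.85 and 1.30, and Ap2m1, for a clathrin adaptor subunit, by 0.33. Outside the mimic group only scramble replicate 1 had Cd63 above 1 scaled CPM (1.14). Cd63 may therefore be in the table only through the mimic libraries, and its call is no separate support. March8, a ubiquitin ligase for membrane proteins including class II, had 38.7 to 42.7 scaled CPM in mimic and 57.3 to 58.6 in scramble libraries. It fell by 0.52 on the log2 scale, and with library totals its change was 0.06, against a median of 0.49 for all genes.

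Of 5 measured co-signalling genes 4 rose, against 17.3% of all genes called higher. Cd48, Icam1, Cd274 (for the inhibitory ligand PD-L1) and Icosl changed by 1.21, 1.17, 0.88 and 0.61, and Cd86, the costimulator of activated presenting cells, had -0.15 ± 0.13 and did not pass. Of 4 measured binding partners, Lgals3 and Cxcr4 rose by 3.17 and 1.42 on the log2 scale, while Mif, the ligand of surface Cd74, and Cd44, its signalling partner, had -0.05 and 0.21 and did not pass. Cxcr4 was at 0.265 to 0.745 scaled CPM outside the mimic group, and Icosl exceeded 1 there only in PBS replicate 2. Both may be in the table only through their high libraries, so their calls are no separate support. H2-DMb2 was the 1 measured row of 7 listed other class II region genes, and the other 6 were not analysed here.

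**Figure D3:**
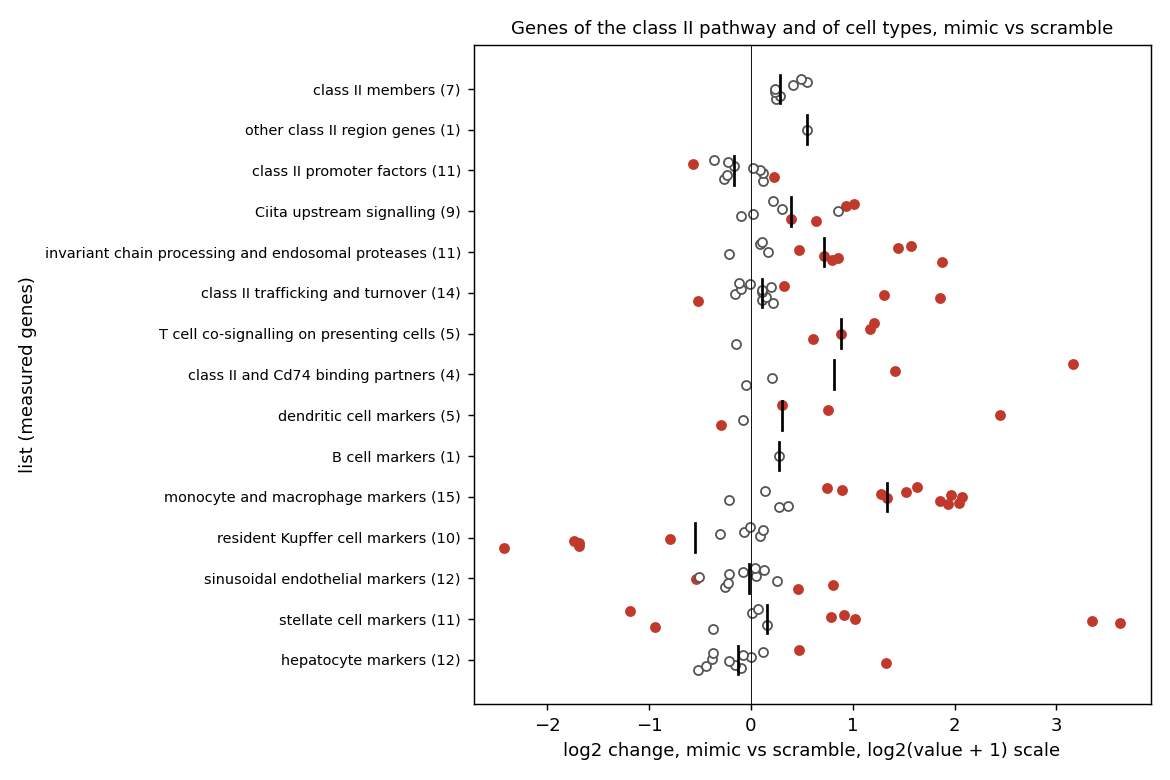
Log2 changes of each measured list gene, mimic against scramble, on the log2(value + 1) scale; filled points have a limma adjusted p under 0.05, short vertical lines are list medians, and the number measured stands beside each list. The 7 class II genes sit between 0.23 and 0.55 with none filled, while 7 of 11 processing genes and 11 of 15 monocyte and macrophage markers are filled on the right.

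Marker genes of the cells that carry class II moved in different directions. Of 15 measured monocyte and macrophage markers, 11 rose and 0 fell in mimic against scramble, with a median change of 1.34. Over all genes, 17.3% were called higher. Itgam, for CD11b, had 7.82, 6.86, 5.15 and 5.48 scaled CPM in mimic and 1.02, 1.08 and 0.905 in scramble libraries, a change of 1.86 ± 0.12 (SE). Ly6c2, of inflammatory monocytes, changed by 1.96, Cd68 by 1.93 and Tyrobp by 1.53. Outside the mimic group Ly6c2 reached at most 0.987 scaled CPM, and Ccr2 and Cd14 exceeded 1 only in PBS replicate 2. These and others of the list may be in the table only through their high libraries, so their calls are no separate support. The summed level of the list was 155 to 258 in mimic, 71.8 to 101.5 in scramble and 75.7 to 158 in PBS libraries, where the highest was PBS replicate 2.

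Of 10 resident Kupffer cell markers 5 fell and 0 rose, against 14.7% of all genes called lower. Clec4f had 2.02, 8.37, 5.54 and 2.93 scaled CPM in mimic and 19.2, 26.2 and 38.4 in scramble libraries, a change of -2.42 ± 0.36 (SE; limma adjusted p = 0.000602). Timd4, Cd163 and Vsig4 changed by -1.69, -1.74 and -1.69. The summed level of the list was 82.0 to 119 in mimic, 111 to 166 in scramble and 109 to 182 in PBS libraries.

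Of 14 listed dendritic cell markers 5 were measured. Itgax, for CD11c, which macrophages can also carry, had 6.35, 10.2, 7.05 and 7.58 scaled CPM in mimic, 0.608, 0.739 and 0.452 in scramble, and 0.543, 2.33, 0.549 and 0.371 in PBS libraries. All mimic libraries were above all others, with a change of 2.45 ± 0.26 (SE, limma adjusted p = 8.22e-05) against scramble. Only the mimic libraries and PBS replicate 2 exceeded 1 scaled CPM. Itgax may therefore be in the table only through these, and its separation and call are no separate support. Fscn1 and Ccr9 rose by 0.76 and 0.31 on the log2 scale, and Zbtb46, of classical dendritic cells, fell by 0.29. With library totals the change of Zbtb46 was 0.03, against a median of 0.49 for all genes. Clec9a, of cross-presenting dendritic cells, had -0.08 and did not pass. Without mimic replicates 1 and 4, 1 of the 5 rose and 0 fell. The summed level of the 5 was 48.2 to 51.1 in mimic, 32.9 to 34.9 in scramble and 29.8 to 41.3 in PBS libraries. Most of that sum was Ccr9, with 33.4 to 40.0 scaled CPM in mimic, 27.6 to 30.2 in scramble and 25.4 to 33.6 in PBS libraries. It is therefore no measure of dendritic cells as a whole. Cd22 was the 1 measured of 14 listed B cell markers, at 0.718 to 1.32 scaled CPM in mimic, 0.534 to 0.702 in scramble and 0.290 to 1.49 in PBS libraries, and 0 of 17 listed T and NK cell markers were measured; the others were not analysed here.

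Other liver cells gave mixed counts, to be read against 17.3% of all genes called higher and 14.7% called lower. Of 12 sinusoidal endothelial markers 2 rose and 1 fell. Stab1 and Lyve1 changed by 0.46 and 0.80, and Mrc1, shared with Kupffer cells, fell by 0.54 on the log2 scale. With library totals the change of Mrc1 was -0.0054, against a median of 0.49 for all genes. Without mimic replicates 1 and 4, 1 rose and 0 fell. Their summed level was 108 to 157 in mimic, 121 to 171 in scramble and 129 to 173 in PBS libraries. Of 11 stellate cell markers 5 rose and 2 fell. The collagen genes Col1a1 and Col3a1 changed by 3.62 and 3.35 and Pdgfrb by 1.02, while Ecm1, 1 of the 2 that fell, changed by -1.19. The list summed to 178 to 322 in mimic, 130 to 139 in scramble and 90.4 to 142 in PBS libraries. Col1a1 and Col3a1 averaged 34.1 and 85.4 scaled CPM in mimic and 1.67 and 7.30 in scramble libraries. The sum is therefore no measure of stellate cells as a whole. Of 12 hepatocyte markers, which check the tissue label, 2 rose and 0 fell. Trf and Ahsg changed by 1.32 and 0.47, while Apob and Tat had -0.45 and -0.38 and did not pass. The list summed to 42972 to 46919 in mimic, 43188 to 47956 in scramble and 42091 to 48412 in PBS libraries. That sum hides opposite shifts. Trf averaged 10110 scaled CPM in mimic and 3871 in scramble libraries, and Alb, named after its values were seen, 12090 and 17310. The part of these cell types in the class II values was not tested.

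The class II genes were then set against Ptprc in each library, a ratio chosen after the values were seen and given with no test. Ptprc had 8.17, 14.7, 10.5 and 9.20 scaled CPM in mimic, 3.07, 3.99 and 4.12 in scramble, and 4.51, 7.41, 3.89 and 3.40 in PBS libraries. Its change of 1.28 ± 0.22 (SE) against scramble passed with a limma adjusted p of 0.00157. H2-Ab1 per Ptprc was 1.33, 1.63, 1.60 and 1.62 in mimic libraries, 3.49, 3.82 and 3.23 in scramble libraries, and 3.11, 7.03, 2.82 and 2.42 in PBS libraries. The mimic libraries lay close together and under every control library.

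The same held for H2-Aa, H2-Eb1, Cd74, H2-DMa and H2-DMb1, so that for 6 of 7 genes the 4 mimic ratios were under all 7 control ratios, as they were for 57.2% of the other 13635 genes of the table. The divisor itself had risen in the mimic libraries, and nothing particular to class II can be read from the count. Cd74 per Ptprc averaged 4.20 ± 0.178 in mimic (SD, n = 4), 9.96 ± 0.463 in scramble (SD, n = 3) and 10.5 ± 5.28 in PBS libraries (SD, n = 4). H2-DMb1 per Ptprc averaged 0.362 ± 0.0269 in mimic, 0.609 ± 0.0270 in scramble and 0.668 ± 0.249 in PBS libraries. Ciita per Ptprc was 0.129 to 0.188 in mimic and 0.193 to 0.290 in scramble libraries, and its PBS range of 0.137 to 0.372 overlapped that of the mimic.

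**Figure D4:**
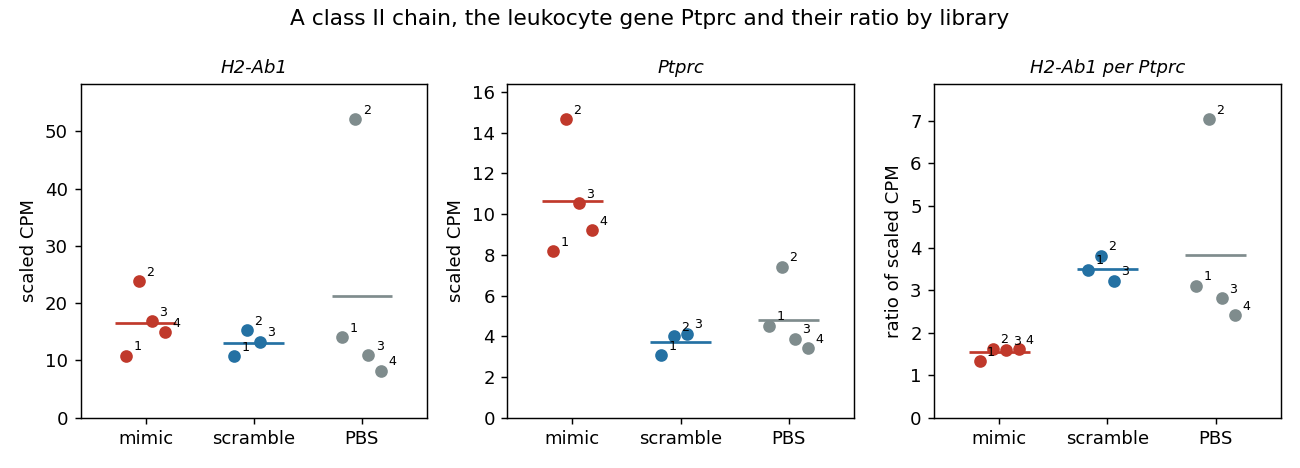
Level of H2-Ab1 and of Ptprc (scaled CPM) and their ratio in the 4 mimic, 3 scramble and 4 PBS libraries; points are libraries with their replicate number and lines are group means. H2-Ab1 overlaps between groups, Ptprc is higher in every mimic library, and the ratio is 1.33 to 1.63 in mimic libraries and at least 2.42 in all others.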

How the data were processed

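Stranded mRNA libraries of frozen liver were read as paired ends of 48 bases, per the labels' protocols. Per the submitters' processing notes, Bowtie, SAMtools 0.1.19, bedtools 2.17.0, edgeR 3.8.6 and the mm10 build were used; counting and annotation are not given in the sources used here. The deposited signal values are reads scaled by an effective library size, here called scaled CPM. The table is named for a filter of 1 CPM in 3 libraries, so a gene low in all controls can be in it only through the mimic libraries. All values of a column were whole multiples of 1 step (tolerance 1e-06), from which reads were recovered for edgeR 4.0.16 and DESeq2 1.42.0 as alternatives; for 9 of the 11 columns a stricter check on low values could not be met. The design had assumed CPM. Groups came from sample titles. The test was limma 3.58.1 (R 4.3.3) on log2(value + 1), 1 fit of 3 group means over 11 libraries with a mean-variance trend, Benjamini-Hochberg adjustment over 13636 genes and a threshold of 0.05, tested on simulated data. Replicate numbers do not pair the samples, and no block was used. Members, lists and tests were chosen with earlier results of these data known, and the lists were written from memory. The text names all members, up to 4 genes per list with the smallest p in mimic against scramble (all where 5 or fewer were measured), and others as stated. GENCODE M21 gave positions and UTRs, and miRNA and promoter sequences came from RefSeq. A result that needs a withheld item is not reported here.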

Additional observations from a re-analysis of the deposited data

Results flagged for a closer look

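A sample far from the rest of its group of 4 (gap over range above 0.829, which chance gives in about 1 of 20 groups) was found 22 times in 150 groups of 75 genes, and 20 of these were PBS replicate 2 on the high side. Among the class II genes it stood out for H2-Aa at 54.1 scaled CPM, H2-Ab1 at 52.1, H2-Eb1 at 149.3 and Cd74 at 135.4. Among other genes it stood out for Rfxank at 6.74, Icosl at 1.30, Cd274 at 5.40, Itgax at 2.33, Ccr9 at 33.6, Ly6c2 at 0.987, Nle1 at 1.97 and Zfp598 at 31.5. Of genes picked after their values were seen, it stood out for Irf1 at 13.7, Ccr2 at 1.79, Cd14 at 2.49, Cxcl9 at 22.2, Ccl5 at 5.72 and Tgtp1 at 42.9 scaled CPM. The rows of Notch4 and Mir5107, at 163.5 and 7.35, also stood out but are not used as separate genes. The 75 genes are those named by the rule for the lists, those most like the chains and those picked later except Alb. Some were therefore named for their values in PBS replicate 2. Over all 13636 genes this library was far on the high side for 319, or 2.34%. Mimic replicate 2 stood out for Icosl, with 1.59 scaled CPM. PBS replicate 4 stood out on the low side for the Kupffer cell gene Timd4, with 2.20 scaled CPM.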

How the results depend on the processing

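Genes called in mimic against scramble and mimic against PBS fell to 2816 and 3273 with a mean of at least 5 (fewer genes tested; list genes called 32 and 37), and to 2548 and 2894 without mimic replicates 1 and 4 (fewer samples). Leaving out 1 library gave 2824 (without scramble replicate 1) to 4904 and 3758 to 5681 genes, 45 to 59 and 47 to 67 list genes, and 0 to 1 and 0 to 3 class II genes, above 0 without PBS replicate 2. In scramble against PBS it gave 0 to 1 genes (without PBS replicate 1) and 0 list or class II genes; a fit of the 2 groups alone called 5 and DESeq2 14. Division by library totals shifted the median of all genes by 0.49 and 0.51 and called 5608 and 7002 of all 13636 genes. It made 98.0% and 98.3% of calls higher (54.2% and 54.0% with the deposited scaling, 46.9% and 47.0% with quantile normalization). Beside those shares it called 4 and 3 of 7 class II genes, whose changes relative to that median were 0.31 to 0.51 and 0.04 to 0.20. edgeR without PBS replicate 2 called 1 and 3 class II genes, against 4921 and 5672 of all 13636 genes. Without mimic replicate 2 and PBS replicate 2 together, limma called 1 and 1 (Ciita both times), against 4841 and 5487 of all genes. These 2 fits were chosen after seeing the data. The cause was not tested elsewhere. Replicate numbers did not pair the samples (same-number correlations -0.28 to 0.26, 3 libraries matching best with their own number); with the number as a block 3808, 4584 and 0 genes and 0 class II genes were called. Depth limits Ciita most, with 36 to 182 reads per library. Of the 6 genes most like the chains, 5 stayed with group-centred values and 1 without PBS replicate 2.

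Signs of small changes reversed. In mimic against PBS, H2-Aa was -0.28 with edgeR and -0.30 with DESeq2, and H2-Eb1 -0.37 and -0.38. H2-Ab1 and Cd74 were 0.021 and 0.049 with quantile normalization, 0.55 and 0.56 with library totals, 0.19 and 0.15 with library weights, 0.58 and 0.50 with edgeR without PBS replicate 2, 0.29 and 0.25 without mimic replicates 1 and 4, and 0.34 and 0.33 without mimic and PBS replicates 2. Leaving out 1 library gave -0.28 to 0.58 for H2-Aa, -0.32 to 0.52 for H2-Ab1, -0.32 to 0.58 for H2-Eb1, -0.37 to 0.49 for Cd74, -0.0021 to 0.47 for H2-DMa and -0.0029 to 0.60 for H2-DMb1. In scramble against PBS, library weights gave 0.089 for H2-Aa, 0.00026 for H2-Ab1 and 0.090 for H2-Eb1. Without PBS replicate 2, with mimic replicate 2 kept or not, H2-Aa was 0.33, H2-Ab1 0.24, H2-Eb1 0.34, Cd74 0.25, H2-DMa 0.051, H2-DMb1 0.046 and Ciita 0.065, and edgeR gave 0.33, 0.24, 0.33, 0.23, 0.071, 0.039 and 0.14 in that order. Leaving out 1 library gave lows of -0.53, -0.60, -0.56, -0.61, -0.42, -0.56 and -0.37 and highs of 0.33, 0.24, 0.34, 0.25, 0.051, 0.046 and 0.065.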
